A study of Homo sapiens with 6 samples.

Results

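Genes of glycolysis and of the response to low oxygen were followed in MOLM-14, a long-kept leukaemia cell line of human myeloid origin that carries the MLL-AF9 fusion. The set was fixed by name and held 42 genes: the subunits and regulators of hypoxia-inducible factor (HIF), known HIF target genes, glucose and lactate transporters, the enzymes of glycolysis and the kinases that steer pyruvate. A gene was measured by probe sets annotated to that gene alone, and the probe set with the highest mean over all arrays stood for it. In this way 39 of the 42 genes were measured, among 19775 genes in all. CA9, SLC16A1 and SLC16A3 were not analysed here. Cells of this line were kept for 24 h with vehicle (DMSO) or with 10 nM cortistatin A (CA), a steroidal alkaloid that blocks the paired Mediator kinases CDK8 and CDK19. Each group had 3 samples, hybridised to 1 Affymetrix array apiece, and the labels name 2 RNA kits without saying which sample had which. Both groups share the same line and medium, and the labels name no oxygen level and no hypoxic group.

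HIF is a pair of proteins, an oxygen-sensitive alpha subunit (HIF1A or EPAS1) bound to the stable partner ARNT. With oxygen present, the EGLN prolyl hydroxylases mark the alpha subunit and the VHL ubiquitin ligase removes it, mostly after transcription, so that a transcript level does not report HIF activity. When the alpha subunit persists, the pair raises transcription of genes for glucose uptake, glycolysis, blood vessel growth and collagen modification. CDK8 is known as a cofactor of HIF1A at such targets, and the comparison asks whether their transcripts move when the Mediator kinases are inhibited.

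Values are log2 intensities, and a change is the CA mean minus the DMSO mean on that scale. A gene was called at a Benjamini-Hochberg adjusted p under 0.05 in limma, a moderated linear model fitted over all 19775 genes. Over all genes 11.1% were called, 6.64% higher and 4.49% lower in CA. Arrays of a group correlated across probe sets at 0.998, and arrays of different groups at 0.996 to 0.997. The 3 prime minus 5 prime signal of the GAPDH control, which rises as RNA degrades, averaged 0.38 ± 0.02 for vehicle and 0.48 ± 0.05 after CA (SD, n = 3; 2-sided exact permutation p = 0.1, the smallest that 3 against 3 arrays allow), and for ACTB it was 2.27 ± 0.13 and 2.38 ± 0.07 (exact p = 0.3). The part of RNA quality in the changes below was not tested. Of 11 measured markers of monocytic leukaemia cells, 9 were above the median level of all probe sets, among them FLT3, CEBPA and LYZ, whereas the transcription factor SPI1 was at 5.51 ± 0.12 in DMSO and FCGR1A at 4.05 ± 0.12. After CA, 4 of these 11 markers were called lower (PTPRC, CSF1R, CD4 and ITGAM) and 1 higher (MEIS1), and their mean log2 ran from 8.72 to 8.74 on the DMSO arrays and from 8.58 to 8.60 on the CA arrays. Markers of other cell types were called higher in 2 of 8 cases for T and NK cells (NCAM1 and GNLY), 1 of 5 for B cells (PAX5), 0 of 6 for erythroid cells and megakaryocytes, and 1 of 9 for epithelial and stromal cells (KRT18), and none was called lower. The mean log2 over the T and NK cell markers ran from 5.44 to 5.58 for DMSO and from 5.67 to 5.73 for CA, and over the B cell markers from 6.38 to 6.45 and from 6.44 to 6.53. Over the erythroid and megakaryocyte markers it ran from 5.48 to 5.59 and from 5.55 to 5.58, and over the epithelial and stromal markers from 5.55 to 5.60 and from 5.56 to 5.69. The part of these markers in the results was not tested.

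Of the 39 measured members, 7 were called higher after CA (17.9%, against 6.64% of all genes) and 1 lower (2.56%, against 4.49%), and 31 were not called. The genes that rose were the HIF alpha subunit EPAS1, the oxygen sensor EGLN1, the HIF targets NDRG1, ANKRD37 and DDIT4, and both glucose transporters, SLC2A1 and SLC2A3. The HIF partner ARNT fell. None of the 17 glycolytic enzymes was called, against 3 of 8 other HIF targets. The median change was -0.02 for the enzymes, 0.15 for the other HIF targets and -0.00 for all genes, and the difference between these role groups was not tested. With arrays centred on reference genes, which moved the median of all genes to 0.02, the median of the enzymes was 0.0024. The called changes ranged from 1.13-fold for SLC2A1 to 1.74-fold for EPAS1. The CA and DMSO values did not overlap in 26 of the 39 members (66.7%, against 31.8% of all genes), with CA above DMSO in 14 and below in 12. They also did not overlap in 4 of 8 measured reference genes (50%), and the share over genes of like intensity was not counted. Most members lie in the upper part of the intensity range, with 35 of 39 above the median of all probe sets, and once genes averaging under 5 on the log2 scale were dropped, 12.7% of all genes were called higher and 9.42% lower. At that filter 8 of 36 members were higher and 3 lower, with the enzymes PFKL higher and ALDOA and TPI1 lower added.

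**Figure D1:**
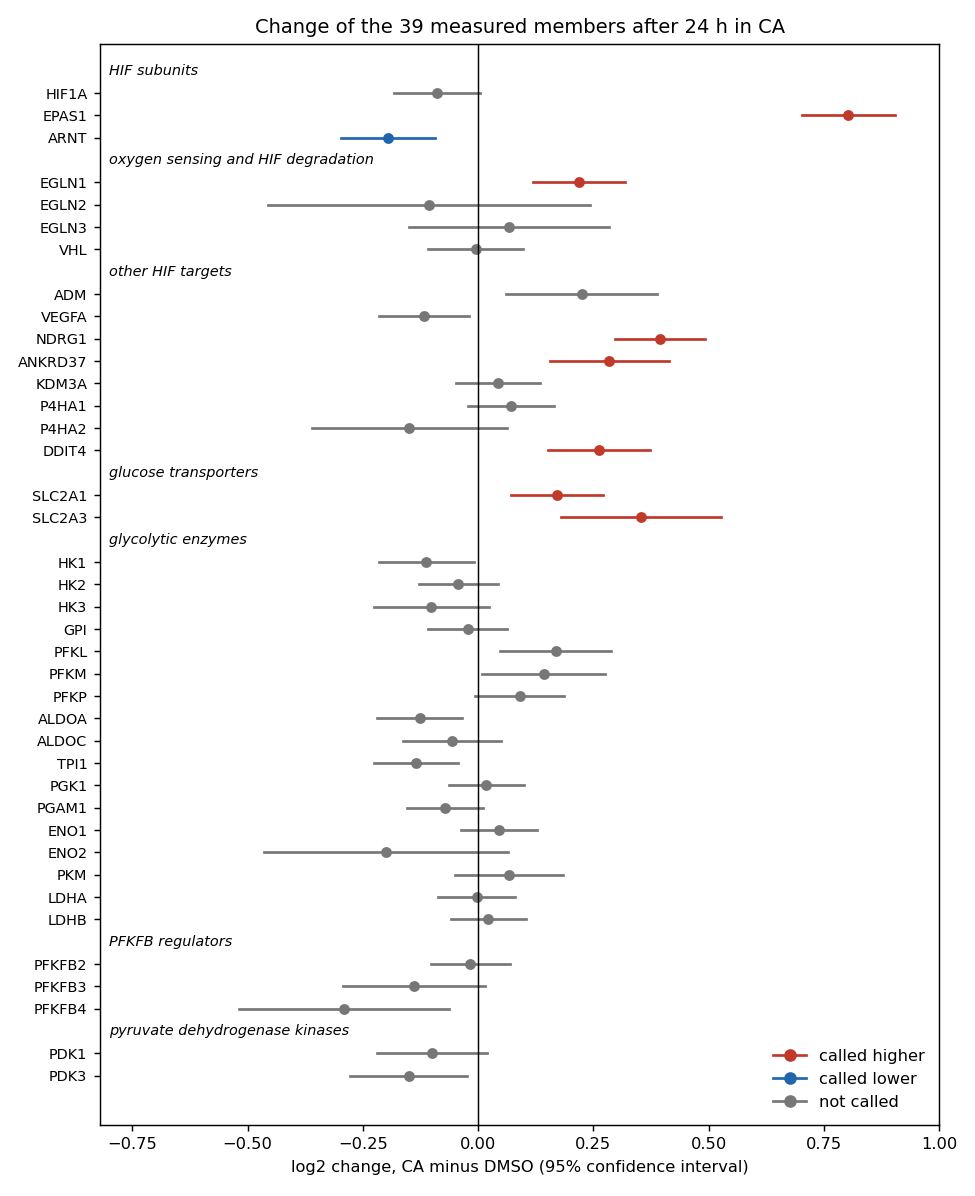
Change of each measured member, as CA minus DMSO on the log2 scale (horizontal axis), grouped by role; points are estimates from 3 CA and 3 DMSO arrays and bars their 95% confidence intervals from limma. EPAS1 lies at 0.80, apart from the other members, the red points of 6 further genes lie between 0.17 and 0.39, ARNT lies at -0.20, and the 17 glycolytic enzymes lie between -0.20 and 0.17.

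Of the HIF subunits, EPAS1 rose on the probe set used, ARNT fell, and HIF1A was not called. EPAS1, the alpha subunit also called HIF-2 alpha and known in endothelial and myeloid cells, was at 9.05, 8.99 and 9.09 in DMSO and at 9.87, 9.83 and 9.83 in CA. Every CA value lay above every DMSO value, and it rose 1.74-fold (0.80, SE 0.04, limma adjusted p = 1.29e-04). ARNT, the shared partner, was at 8.82, 8.81 and 8.72 in DMSO and at 8.59, 8.60 and 8.57 in CA, again without overlap, and fell 1.14-fold (-0.20, SE 0.04, limma adjusted p = 0.0326). HIF1A, the alpha subunit of most cell types, was at 11.10, 11.12 and 11.19 in DMSO and at 11.05, 11.04 and 11.06 in CA. These values did not overlap either, but the change of -0.09 (95% confidence interval -0.18 to 0.01) was not called (limma adjusted p = 0.221). With an intensity trend and robust moderation, which lets bright genes have a smaller prior variance, HIF1A was called lower (adjusted p = 0.0394). EPAS1 stayed called with any 1 array left out (adjusted p of 0.0011 to 0.00177). Its call rested on 1 of 3 probe sets: the others were at means of 3.99 and 3.82 in DMSO, under the lower quartile of all probe sets (4.12), with changes of -0.16 and -0.22, and on the mean of all probe sets the change was 0.14 (adjusted p = 0.189). All 7 probe sets of ARNT pointed lower, from -0.04 to -0.30, though none was called when probe sets were tested singly. The call of ARNT was kept only with DMSO replicate 3 left out (adjusted p = 0.0406) and lost with each of the other arrays left out (0.0900 to 0.102), and it was at -0.17 with arrays centred on reference genes (adjusted p = 0.0631).

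Among the genes that sense oxygen and degrade HIF, EGLN1, the main prolyl hydroxylase and itself a HIF target, rose 1.16-fold. It was at 11.63, 11.71 and 11.74 in DMSO and at 11.91, 11.92 and 11.91 in CA (0.22, SE 0.04, limma adjusted p = 0.0212). The CA values lay within a narrow band above all DMSO values. Of its 4 probe sets, 2 were called higher singly (0.35 and 0.38), the one used here was not (adjusted p = 0.0550), and the dimmest was at -0.08. Its call was kept without DMSO replicate 3 (adjusted p = 0.0438) and lost without any of the others (0.0588 to 0.0732). VHL, the substrate receptor of the ubiquitin ligase, was at -0.01 (95% confidence interval -0.11 to 0.10). EGLN3, a strongly hypoxia-inducible hydroxylase, was at 0.07 (-0.15 to 0.28), and EGLN2 at -0.11 (-0.46 to 0.24). EGLN2 was measured at a mean of 4.44 in DMSO. The 2 brighter probe sets that name EGLN2 together with a readthrough transcript from its neighbour were at 0.02 and -0.02 and were not called.

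Of the other HIF targets, 3 of 8 rose. NDRG1, a hypoxia-induced gene of differentiation and stress, was at 9.08, 9.07 and 9.13 in DMSO and at 9.45, 9.53 and 9.47 in CA, and rose 1.31-fold (0.39, SE 0.04, limma adjusted p = 0.0022). DDIT4, an inhibitor of mTOR signalling induced by hypoxia and other stress, was at 12.78, 12.69 and 12.65 in DMSO and at 12.96, 12.97 and 12.97 in CA, and rose (0.26, SE 0.05, limma adjusted p = 0.0163). ANKRD37, an ankyrin repeat gene and a known HIF target, was at 7.72, 7.71 and 7.63 in DMSO and at 8.06, 7.91 and 7.95 in CA, and rose 1.22-fold (0.28, SE 0.05, limma adjusted p = 0.0210). In all these genes the groups did not overlap. NDRG1 stayed called with any 1 array left out (adjusted p of 0.0104 to 0.0130). DDIT4 stayed called only without DMSO replicate 1 (0.0169; 0.0550 to 0.0602 without each other array) and ANKRD37 only without CA replicate 2 (0.0394; 0.0520 to 0.0756 without each other array). NDRG1 and DDIT4 have 1 probe set each. The other probe set of ANKRD37, at a mean of 4.77 in DMSO, was at -0.14, and on the mean of both the change was 0.07 (adjusted p = 0.680).

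The remaining targets were not called. ADM, which encodes the vasodilator adrenomedullin, was at 8.43, 8.35 and 8.18 in DMSO and at 8.56, 8.50 and 8.57 in CA, without overlap (0.22, 95% confidence interval 0.06 to 0.39, limma adjusted p = 0.0911). VEGFA, the main vascular growth factor, was at 10.78, 10.74 and 10.68 in DMSO and at 10.61, 10.61 and 10.64 in CA (-0.12, -0.21 to -0.02, limma adjusted p = 0.128). For VEGFA the CA values were thus the lower ones, opposite in sign to NDRG1, DDIT4 and ANKRD37, and its 3 other probe sets were between -0.00 and 0.04. With the intensity trend and robust moderation ADM was called higher (adjusted p = 0.0130) and VEGFA lower (0.0137), while on the mean of all its probe sets VEGFA was at -0.02 (0.830). The histone demethylase KDM3A was at 0.04 (-0.05 to 0.13), and the collagen prolyl hydroxylases P4HA1 and P4HA2 were at 0.07 (-0.02 to 0.17) and -0.15 (-0.36 to 0.06).

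**Figure D2:**
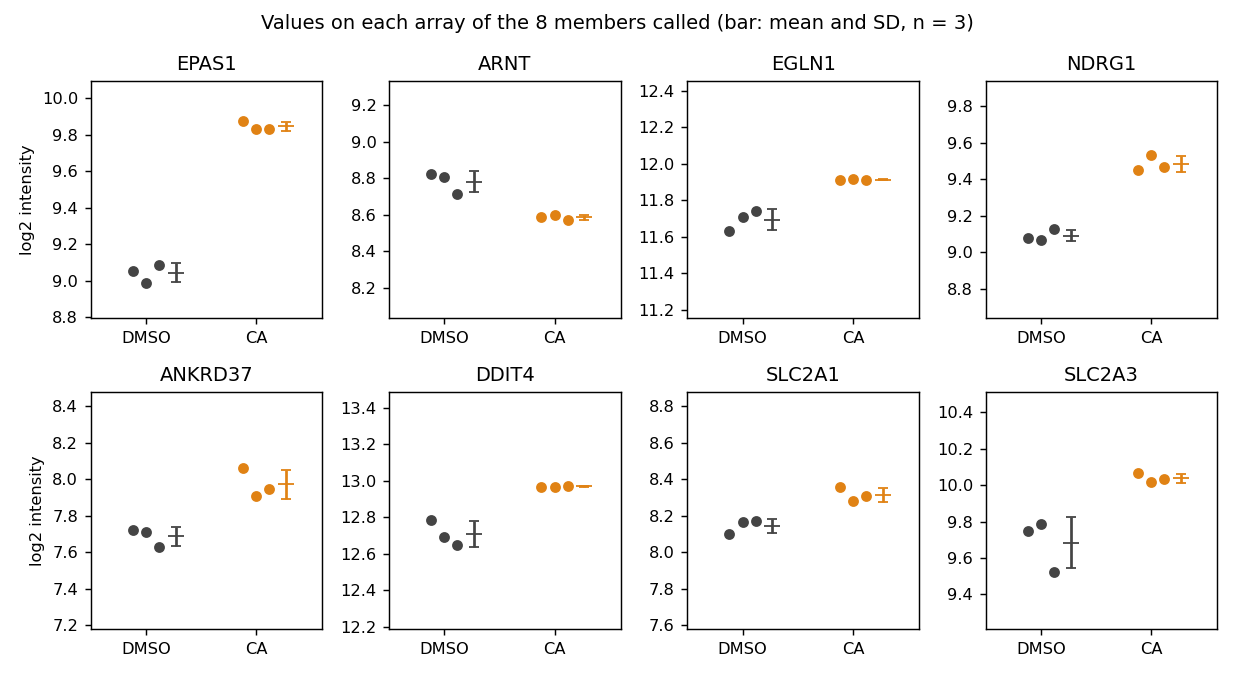
Log2 intensity on each of the 3 DMSO and 3 CA arrays for the 8 called members, in replicate order from left to right; the bar beside the points is the mean with its SD (n = 3), and each panel spans 1.3 log2 units. In each panel the CA points lie clear of the DMSO points, above them in 7 genes and below them in ARNT, and the gap is widest for EPAS1 (9.09 at most in DMSO, 9.83 at least in CA).

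A HIF binding site has the core ACGTG or GCGTG. Both letter strings were searched on both strands in the 250 bases upstream of RefSeq start sites (GRCh38.p14), with overlapping matches counted apart, so that the palindrome CACGTG counts as 2. Windows were counted for 36 of the 42 genes, the unmeasured ones included, and 28 of them held a match. Over the whole table, 12945 of 27305 genes held one. Member windows on the chromosome of NDRG1 were left out of the counts, whereas the windows of the whole table were not filtered. By window, 37 of 65 held a match (56.9%), against 43.2% of all 35116 windows of that length in the table. Some genes have several start sites, and a gene with more windows has more chances to hold a match. The 36 genes had 65 windows and the 27305 genes 35116, so the counts by gene are not on an equal footing. Windows can also overlap and count 1 site again, as in KDM3A. Windows were counted for 5 of the 7 members that rose, with none for NDRG1 and SLC2A3. Of these 5, 4 held a match: 3 in ANKRD37, 3 in DDIT4, 1 in EGLN1 and 1 in EPAS1, with 0 in SLC2A1. The window of ARNT held 0. Counted by gene in the same way, 13 of 17 glycolytic enzymes held a match in at least 1 window. By window it was 18 of 37 (48.6%), with 7 windows each for HK1 and PFKM. There were 3 matches in PGK1 and 5 in the first window of LDHA. The 4 risen genes with a match are shown beside these 2 enzymes, whose transcripts were not called, with the matches in capitals, 5′ to 3′ on the strand of the gene and ending 1 base before the start site.
ANKRD37 (chr4:185396591-185396840, plus strand): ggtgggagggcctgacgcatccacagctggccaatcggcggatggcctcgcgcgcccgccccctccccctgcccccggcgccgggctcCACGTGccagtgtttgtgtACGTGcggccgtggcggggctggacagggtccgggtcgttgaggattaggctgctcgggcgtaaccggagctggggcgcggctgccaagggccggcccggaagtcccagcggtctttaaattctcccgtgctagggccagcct
DDIT4 (chr10:72273674-72273923, plus strand): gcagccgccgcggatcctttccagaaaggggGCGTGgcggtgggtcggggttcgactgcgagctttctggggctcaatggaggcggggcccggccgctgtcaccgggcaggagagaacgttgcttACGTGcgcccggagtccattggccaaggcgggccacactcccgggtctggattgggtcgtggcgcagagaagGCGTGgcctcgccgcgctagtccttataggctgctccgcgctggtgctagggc
EGLN1 (chr1:231422288-231422537, minus strand): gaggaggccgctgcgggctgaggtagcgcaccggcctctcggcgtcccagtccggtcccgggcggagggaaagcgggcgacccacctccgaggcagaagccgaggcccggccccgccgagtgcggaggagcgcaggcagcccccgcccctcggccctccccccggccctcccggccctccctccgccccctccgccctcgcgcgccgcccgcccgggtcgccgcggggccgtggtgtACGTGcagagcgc
EPAS1 (chr2:46297157-46297406, plus strand): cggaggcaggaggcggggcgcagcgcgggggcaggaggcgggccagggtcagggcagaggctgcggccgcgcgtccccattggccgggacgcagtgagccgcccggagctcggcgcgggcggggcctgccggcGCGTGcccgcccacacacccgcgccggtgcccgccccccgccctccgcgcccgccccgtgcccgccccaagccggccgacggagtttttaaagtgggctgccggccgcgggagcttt
PGK1 (chrX:78103998-78104247, plus strand): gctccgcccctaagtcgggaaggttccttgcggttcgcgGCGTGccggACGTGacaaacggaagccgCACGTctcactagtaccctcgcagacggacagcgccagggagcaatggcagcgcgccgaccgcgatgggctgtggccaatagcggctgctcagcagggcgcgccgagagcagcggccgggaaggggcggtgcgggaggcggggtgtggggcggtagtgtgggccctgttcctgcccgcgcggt
LDHA (chr11:18394313-18394562, plus strand): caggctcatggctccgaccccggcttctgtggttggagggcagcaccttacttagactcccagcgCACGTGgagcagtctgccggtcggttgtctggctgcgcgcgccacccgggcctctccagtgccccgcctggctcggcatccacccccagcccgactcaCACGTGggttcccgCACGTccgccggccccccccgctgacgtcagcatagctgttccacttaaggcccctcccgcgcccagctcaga
The strings are thus present upstream of genes that rose and of genes that were not called. A match is a description of the letters and not a bound site, and sites further away, in introns or at enhancers were not searched.

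Both measured glucose transporters rose. SLC2A3, the high-affinity transporter of neurons and leukocytes, was at 9.75, 9.78 and 9.52 in DMSO and at 10.06, 10.02 and 10.03 in CA, and rose 1.28-fold (0.35, SE 0.07, limma adjusted p = 0.0273). SLC2A1, the basal transporter of most cells, was at 8.10, 8.16 and 8.17 in DMSO and at 8.36, 8.28 and 8.31 in CA, and rose 1.13-fold (0.17, SE 0.04, limma adjusted p = 0.0481). The groups did not overlap in either gene, and DMSO replicate 3 of SLC2A3 lay below the other DMSO arrays. The 3 probe sets of SLC2A3 were at 0.26, 0.29 and 0.35, and 2 were called singly. SLC2A14 is a close paralog whose transcripts such probe sets can match, and the 2 probe sets annotated to both genes were at 0.31 (called) and 0.12 (not called). SLC2A3 was called without DMSO replicate 2 (adjusted p = 0.0399) or 3 (0.0291) and lost its call without DMSO replicate 1 or any CA array (0.0568 to 0.0883). SLC2A1 lost its call with each array left out (0.0918 to 0.133), and its other, dimmer probe set was at 0.04.

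On the probe sets used, the changes of the 17 glycolytic enzymes were small and ran both ways. Of these, 7 estimates were above and 10 below 0, from -0.20 for ENO2 to 0.17 for PFKL, and the lowest adjusted p was 0.0762 (limma; 5 of 17 had an unadjusted p under 0.05, against 5004 of 19775 genes). At the entry, the hexokinases HK1, HK2 and HK3, which trap glucose as its phosphate, were at -0.11 (95% confidence interval -0.22 to -0.01), -0.04 (-0.13 to 0.04) and -0.10 (-0.23 to 0.02), and the isomerase GPI was at -0.02 (-0.11 to 0.06). A dimmer probe set of HK2 was at -0.32, and as the value of the gene it was not called (limma adjusted p = 0.0547). The phosphofructokinases, which commit sugar to glycolysis, lay on the other side of 0, with PFKL at 0.17 (0.05 to 0.29), PFKM at 0.14 (0.01 to 0.28) and PFKP at 0.09 (-0.01 to 0.19). PFKL was at 8.19, 8.04 and 8.09 in DMSO and at 8.25, 8.31 and 8.26 in CA, without overlap (adjusted p = 0.0899 by limma).

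The aldolase ALDOA, which splits the sugar, was at 12.82, 12.78 and 12.87 in DMSO and at 12.69, 12.70 and 12.71 in CA (-0.13, -0.22 to -0.03). TPI1, which interconverts the resulting triose phosphates, was at 12.29, 12.34 and 12.32 in DMSO and at 12.17, 12.15 and 12.22 in CA (-0.13, -0.23 to -0.04). In both genes all CA values lay below all DMSO values, and all 3 probe sets of each pointed lower. ALDOC was at -0.06 and PGAM1, a mutase, at -0.07. The kinase PGK1 was at 13.56, 13.55 and 13.55 in DMSO and at 13.55, 13.58 and 13.57 in CA, so that the groups overlapped (0.02, -0.06 to 0.10). The enolase ENO1 was at 0.04 (-0.04 to 0.13) and its dimmest probe set at 0.33 (-0.08 to 0.74, not called), ENO2, the only member under the lower quartile of all probe sets, at -0.20 (-0.46 to 0.06) and the pyruvate kinase PKM at 0.07 (-0.05 to 0.18). LDHA, which makes lactate and is a textbook HIF target, was at 13.94, 13.91 and 13.92 in DMSO and at 13.93, 13.90 and 13.93 in CA (-0.00, -0.09 to 0.08). LDHB was at 0.02 (-0.06 to 0.10). The zero count depends on how the spread was modelled: with the intensity trend and robust moderation, ALDOA (adjusted p = 0.00104), TPI1 (9.78e-04) and PGAM1 (0.0056) were called lower and PFKL (0.0281) higher, and over all genes 10.7% were then called higher and 8.57% lower.

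The regulators beside the pathway were all below 0, and none was called as reported. PFKFB2, PFKFB3 and PFKFB4 set the level of the sugar bisphosphate that activates phosphofructokinase, and PFKFB3 and PFKFB4 are HIF targets. They were at -0.02 (95% confidence interval -0.10 to 0.07), -0.14 (-0.29 to 0.02) and -0.29 (-0.52 to -0.06). PFKFB4 was at 6.49, 6.48 and 6.40 in DMSO and at 6.32, 5.95 and 6.22 in CA, without overlap (adjusted p = 0.111 by limma). Its 2 probe sets agreed in sign (-0.29 and -0.23), and their mean was called (-0.26, adjusted p = 0.0197). The pyruvate dehydrogenase kinases PDK1 and PDK3, which keep pyruvate out of mitochondria, were at -0.10 (-0.22 to 0.02) and -0.15 (-0.28 to -0.02). With the intensity trend and robust moderation PFKFB4 (adjusted p = 0.0412) and PDK3 (0.0437) were called lower, while on the mean of all its probe sets PDK3 was at -0.06 (0.464).

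**Figure D3:**
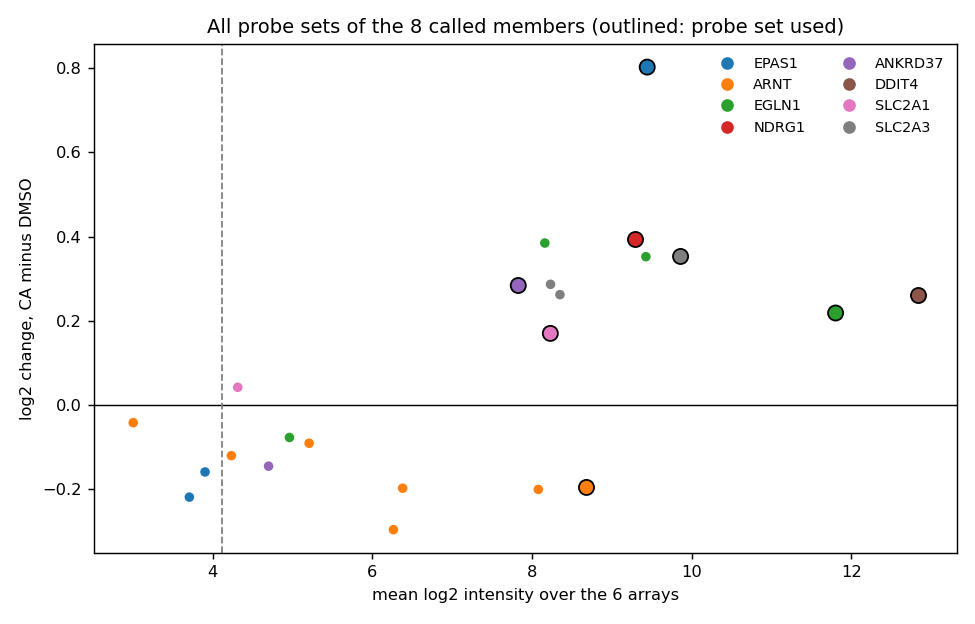
Change of every probe set of the 8 called members (vertical axis, CA minus DMSO on the log2 scale) against its mean log2 intensity over the 6 arrays; outlined points are the probe sets used, and the dashed line is the lower quartile of all probe sets (4.12). The probe sets that oppose their gene's direction, 2 of EPAS1 and 1 each of EGLN1 and ANKRD37, all have a mean under 5, while all 7 probe sets of ARNT lie below 0.

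In the single probe set test, 5.01% of all 54613 probe sets were called, counting both directions. Of the 91 probe sets of members, 8 were called, all higher. They belonged to EPAS1, EGLN1, NDRG1, ANKRD37, DDIT4 and SLC2A3. No member left uncalled had a called probe set, and no called member had a probe set called the other way.

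Further genes of the same pathways were counted from lists that did not overlap the members. Of 32 further HIF targets, 8 rose and 5 fell, with a median of 0.03, beside 6.64% and 4.49% of all genes. BHLHE40, a transcriptional repressor, rose 2.04-fold, from 9.88 ± 0.05 to 10.91 ± 0.02 (SD, n = 3). LGALS1, which encodes galectin-1, fell 1.57-fold, from 12.93 ± 0.04 to 12.28 ± 0.03. CITED2, a HIF target that competes with HIF for its coactivators, fell 1.54-fold, from 10.67 ± 0.07 to 10.05 ± 0.06, and BNIP3L, a mitophagy receptor, fell by 0.58 on the log2 scale, from 8.98 ± 0.03 to 8.40 ± 0.08. Adjusted p was at most 9.8e-04 in these genes (limma), and the calls of all of them held with any 1 array left out. Of 17 further regulators of HIF, 1 rose and 0 fell: CUL2, the scaffold of the VHL ubiquitin ligase, rose 1.17-fold (0.23, limma adjusted p = 0.0126; 0.0508 without CA replicate 2). Without probe sets that end in _x_at or _s_at, CUL2 was at 0.12 and not called (adjusted p = 0.232).

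Of 19 further genes of sugar uptake and glycolysis, 2 rose and 1 fell (median -0.02), beside 6.64% and 4.49% of all genes. SLC2A5, a transporter of fructose, was at 9.42, 9.47 and 9.41 in DMSO and at 10.70, 10.71 and 10.77 in CA, and rose 2.46-fold (1.30, SE 0.04, limma adjusted p = 2.84e-05), with the call kept when any 1 array was left out. Its change was 0.66 without probe sets that end in _x_at or _s_at (adjusted p = 0.00147) and 0.77 on the mean of all its probe sets (1.42e-04). TIGAR, which lowers glycolytic flux, rose 1.16-fold (0.22, limma adjusted p = 0.0380; 0.0506 to 0.118 with each array left out). SLC16A7, a monocarboxylate transporter, fell 1.28-fold (-0.35, limma adjusted p = 0.0226) and lost its call without DMSO replicate 2 or 3 or CA replicate 2 or 3 (0.0541 to 0.0763), and when its most variable probe set stood for it (-0.27, adjusted p = 0.275). GAPDH, the remaining enzyme of the central pathway, was at 14.16, 14.08 and 14.12 in DMSO and at 13.98, 13.96 and 13.99 in CA, without overlap (-0.14, 95% confidence interval -0.23 to -0.05, limma adjusted p = 0.0649). Its value lies beside those of TPI1 and ALDOA and beside the shift in its own 3 prime to 5 prime control given above.

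Beyond pyruvate, 1 of 16 genes of its entry into the tricarboxylic acid cycle and of glucose synthesis rose and 1 fell (median -0.02). Each is 6.25% of the list, beside 6.64% higher and 4.49% lower over all genes. FBP1, the phosphatase of glucose synthesis, rose 1.39-fold (0.48, limma adjusted p = 0.0451; 0.0597 to 0.129 with each array left out), and MPC2, a subunit of the mitochondrial pyruvate carrier, fell 1.12-fold (-0.16, limma adjusted p = 0.0414; 0.0805 to 0.131 with each array left out). Without probe sets that end in _x_at or _s_at, MPC2 was at -0.03 (adjusted p = 0.809), and on the mean of all its probe sets at -0.10 (0.182). None of 7 genes of the pentose phosphate pathway was called (median -0.06). Of these, 3 had an unadjusted p under 0.05 by limma, against 5004 of 19775 genes. In the inhibited kinase module itself, CDK8 was at 0.06, CDK19 at -0.02, CCNC at 0.01, MED12 at -0.08, MED12L at -0.15 and MED13 at -0.06, all uncalled. MED13L rose 1.18-fold (0.24, limma adjusted p = 0.0194), a call kept without DMSO replicate 2 and lost without each other array (0.0617 to 0.0758) and on the mean of all its probe sets (0.20, adjusted p = 0.0644). In a bulk sample, a lower level cannot be told apart from fewer cells that make the transcript.

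**Figure D4:**
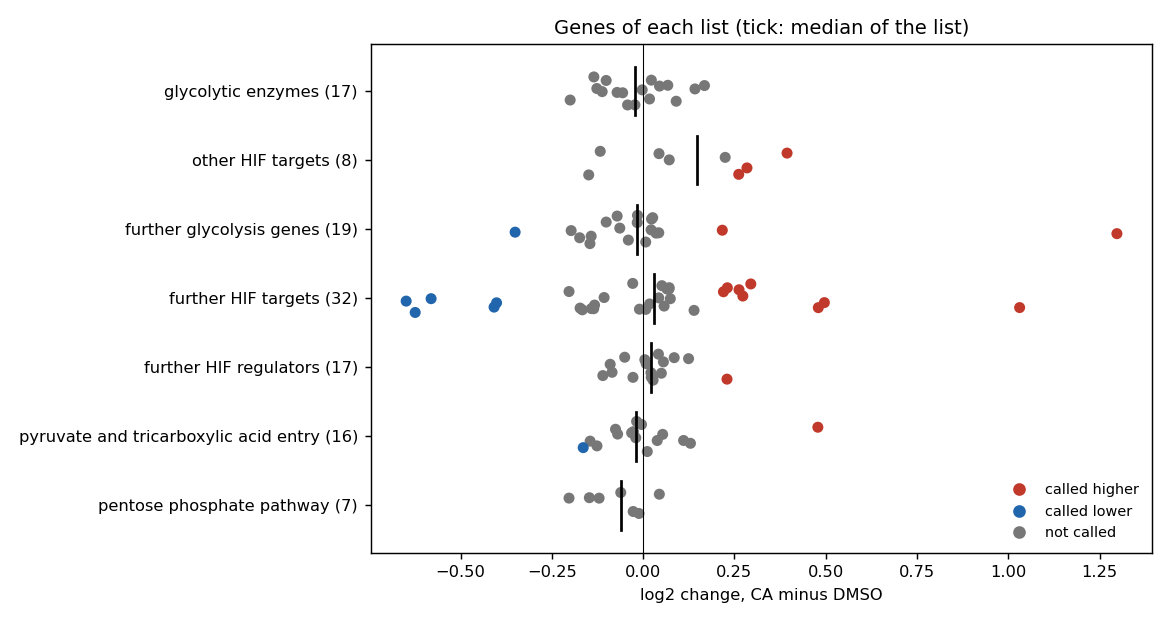
Change of each gene (CA minus DMSO on the log2 scale) in role groups of members (upper 2 rows) and in further lists of the same pathways, with the number of measured genes in brackets; red and blue points were called higher and lower, grey points were not called, and the tick is the list's median. Grey points within 0.20 of 0 make up the row of glycolytic enzymes, whereas the further HIF targets hold called genes on both sides, from -0.65 for LGALS1 to 1.03 for BHLHE40.

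**Figure D5:**
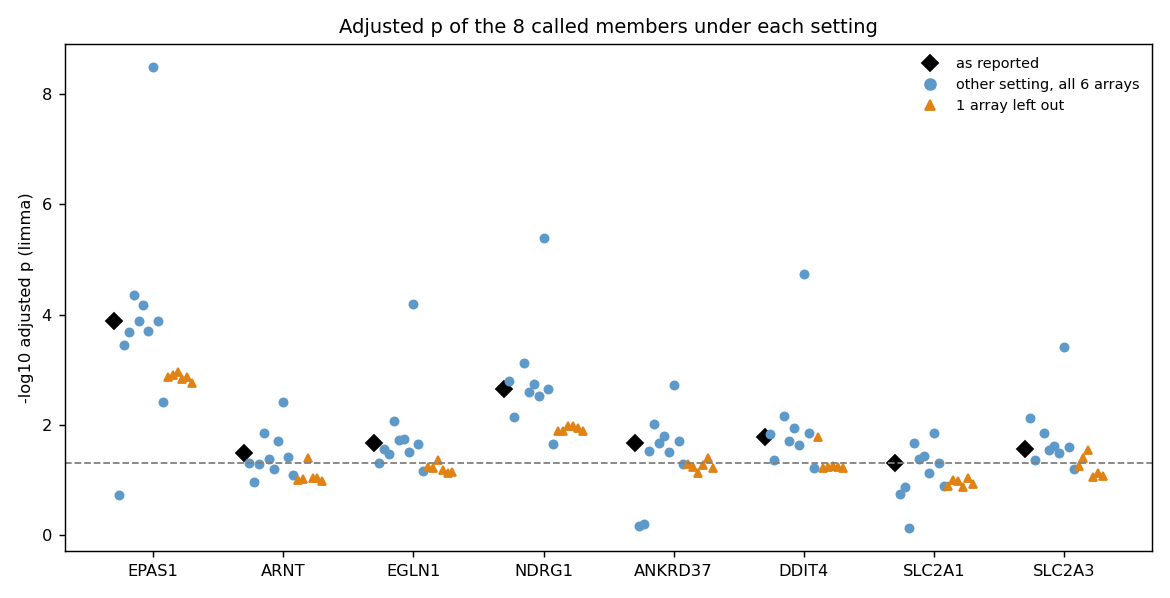
Adjusted p of the 8 called members on a -log10 scale (limma) as reported (diamonds), under other settings on all 6 arrays (circles) and with 1 array left out (triangles); the dashed line is 0.05. EPAS1 and NDRG1 lie above the line with any 1 array left out, and SLC2A1 lies below it in each such case.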

How the data were processed

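Total RNA of 6 wells was labelled from its 3′ end and hybridised to Affymetrix U133 Plus 2.0 arrays, per the labels' protocols. The authors deposited log2 intensities, 1 per probe set and array. RMA and affy are the tools named, per the submitters' processing notes, with no version and no word on the arrays normalized jointly. RMA shrinks large differences.

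Of 54675 probe sets, 41091 had 1 gene symbol, 1801 several, 11721 none here and 62 were controls. Symbols were updated by Entrez number through RefSeq (GRCh38.p14; 99.9% matched); promoter sequences are RefSeq's. Each gene took its probe set of highest mean, without a filter on level. limma 3.58.1 in R 4.3.3 (lmFit, eBayes, 2-sided, no covariates) was tested on simulated data and run over 19775 genes. The samples were triplicate wells, so p-values reflect spread among wells, which may be technical; arrays give no depth, and their number limits precision. Every member is named; called members are given by array, and of each further list up to 4 called genes of largest change, with GAPDH and the kinase module. Members and lists were chosen with earlier results of these data known. Alternatives were other probe set rules, a level filter, centring, quantile normalization, variance models, array weights, a replicate block, other thresholds and leaving out each array.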

Additional observations from a re-analysis of the deposited data

How the results depend on the processing

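Of 125 recomputed changes of the 8 called members, 124 kept their direction, and the exception was ANKRD37 on its probe set of largest variance (-0.14). Part of the 125 could not change direction. The intensity trend, the replicate block and the level floor leave the estimates of these members as they were. Averaging probe sets or choosing them by variance does so for NDRG1 and DDIT4, which have 1 probe set each. The 7 members called higher became 4 on the mean of all probe sets, 3 without _x_at and _s_at probe sets, 2 at an adjusted p under 0.01, 4 with at least 1.2-fold, and 2 to 4 with 1 array left out. The 1 called lower became 2 on the mean of all probe sets or after a further quantile normalization, 3 with a floor of 5 on the mean log2 or an adjusted p under 0.1, 8 with an intensity trend and robust moderation, and 0 on the probe set of largest variance, without _x_at or _s_at probe sets, centred on reference genes, at an adjusted p under 0.01, with at least 1.2-fold or per probe set; with 1 array left out it was 0 to 1. Glycolytic enzymes called higher were 1 and called lower 2 with the floor of 5 and at an adjusted p under 0.1, 1 higher and 3 lower with the trend, and 1 lower after quantile normalization. Other HIF targets called higher were 1 without _x_at or _s_at probe sets or at an adjusted p under 0.01 and 1 to 2 with 1 array left out, and 1 was called lower with the trend. Medians moved to -0.056 (enzymes) on the mean of all probe sets or that of largest variance, and to 0.10 and 0.22 (other targets) on the mean and with the floor of 5. In the further lists, 13 higher became 7 on the probe set of largest variance, without _x_at or _s_at probe sets, at an adjusted p under 0.01 or with at least 1.2-fold, and 8 to 11 with 1 array left out; 7 lower became 12 with the floor of 5 or an adjusted p under 0.1 and 18 with the trend. Some settings hold fewer arrays or genes, and the cause of the moved counts was not tested. Centring on reference genes turned the share of higher genes among all calls from 59.7% to 70.3%. Genes called in all, 2202 as reported, numbered 3814 with the trend, 1411 on the probe set of largest variance, 1336 without _x_at and _s_at probe sets, and 1173 to 1331 with 1 array left out.

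Same-numbered arrays did not deviate together (correlations of 0.02 to 0.03), so the numbers were not taken as pairs. With the replicate block, 2 members were called higher (EPAS1 and NDRG1) and 0 lower, 1 other HIF target was higher, 7 further genes were higher, and 1118 genes were called in all in place of 2202.

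Uncalled genes near 0 changed sign in places. On the probe set of largest variance P4HA2 was at 0.045, PDK1 at 0.16, PFKP at -0.032, PGK1 at -0.30, PKM at -0.0061 and MED12 at 0.042; PGK1 took -0.066 when its probe sets were averaged. Centred on reference genes VHL was at 0.019, GPI at 0.0024, LDHA at 0.022, PFKFB2 at 0.0076 and CDK19 at 0.00997, and LDHA was at 0.014 after quantile normalization. With 1 array left out EGLN2 ran from -0.22 to 0.035, EGLN3 from -0.036 to 0.13, VHL from -0.036 to 0.015, LDHA from -0.0103 to 0.0079 and CCNC from -0.0065 to 0.024.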
